A study of Brassica oleracea with 15 samples.

Results

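The 10 genes described here are core genes of the photosystems that are encoded in the plastid genome. They are psaA, psaB and psaC of photosystem I and psbA, psbB, psbC, psbD, psbE, psbF and psbH of photosystem II. Each was taken from the array's annotation as the probe set that carries that single symbol, which gave 1 probe set for each of the 10 genes, out of 22746 probe sets on the array. All 10 lay above the filter on dim probe sets and were among the 11373 tested.

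The plants were wild type Brassica oleracea, etiolated seedlings 3 days old. One set received unidirectional blue light for 2 h, one was gravity stimulated for 2 h, and the control was dark-grown and unstimulated (mock stimulation in the design text). Flank sections were cut from the outside of the hypocotyl, the seedling stem below the cotyledons, leaving the vasculature, and each array measured a pool of about 100 seedlings. The 15 arrays fell into 5 groups of 3: shaded and lit flank after blue light, bottom and top flank after gravity stimulation, and left and right flanks of unstimulated controls. Groups follow the sample titles, because the extract notes name other flanks for some samples (for the lit samples they name the shaded flank as collected). The shaded and bottom flanks are those that elongate more in the bend.

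The photosystems are the thylakoid complexes that turn light into electron flow. Their reaction centres are encoded in the plastid, and most of their outer subunits and antenna proteins are encoded in the nucleus. In the dark the plastids of a seedling are etioplasts, which lack assembled photosystems but already hold photosystem transcripts, and light brings chlorophyll synthesis and assembly. Plastid genes are transcribed in units of several genes by a plastid-encoded polymerase with nuclear-encoded sigma factors and by a nuclear-encoded polymerase. In Arabidopsis and other plants the unit of psbD and psbC has a promoter that responds to blue light. The relevant units are psaA with psaB, psbD with psbC, psbE with psbF, psbB with psbH, and psaC among NDH genes, while psbA is transcribed by itself.

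Values are Affymetrix signals in arbitrary units, scaled by the authors to a trimmed mean of 500 on each array. The arrays carry Arabidopsis probes, so the match between a Brassica transcript and its probes enters each signal. Levels or within-array differences between genes therefore describe the probe sets and do not order the transcripts by abundance. Differences are on the log2 scale from limma, a linear model with moderated variances fitted to all tested probe sets, with p values adjusted by the Benjamini-Hochberg method and a threshold of 0.05. With 3 arrays in each group, precision is set by their number. In pooled tissue, fewer plastids per cell, another mix of cells and less of a transcript per plastid cannot be told apart.

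Before the results, 1 array stood apart from the rest in features that touch the members. Lit flank replicate 2 had the lowest photosystem core signal of all 15 arrays, on average 0.75 log2 units below each gene's mean, with 9 of the 10 genes below their own mean. Its value on the array's 25S ribosomal RNA probe set was 4507.6, against 460.1 to 930.6 on the other 14 arrays. The 58 other plastid probe sets with a single symbol followed the same course on that array, with an average of -0.68 over the 56 that were tested. Among fixed marker lists for other tissues, 0 of the epidermal, 0 of the vascular and 0 of the root symbols matched a named probe set. CLV3 of the shoot apex was below the filter, so these lists could not check the labelled tissue. PORB, the protochlorophyllide reductase of dark-grown and greening tissue, had mean signals from 1382.6 to 1781.4 in the 5 groups.

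All 10 genes gave bright signals. Their mean log2 signal ran from 10.07 for psbE, at percentile 88.3 of all probe sets, to 15.05 for psbC, at percentile 99.9. The residual spread within groups, as a standard deviation (SD) of log2 signal, was lowest for psbC, 0.30, and highest for psbE, 0.69. Its median over the 10 genes was 0.42, against 0.35 for all tested probe sets, so these genes varied somewhat more between replicates than a typical probe set.

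**Figure D1:**
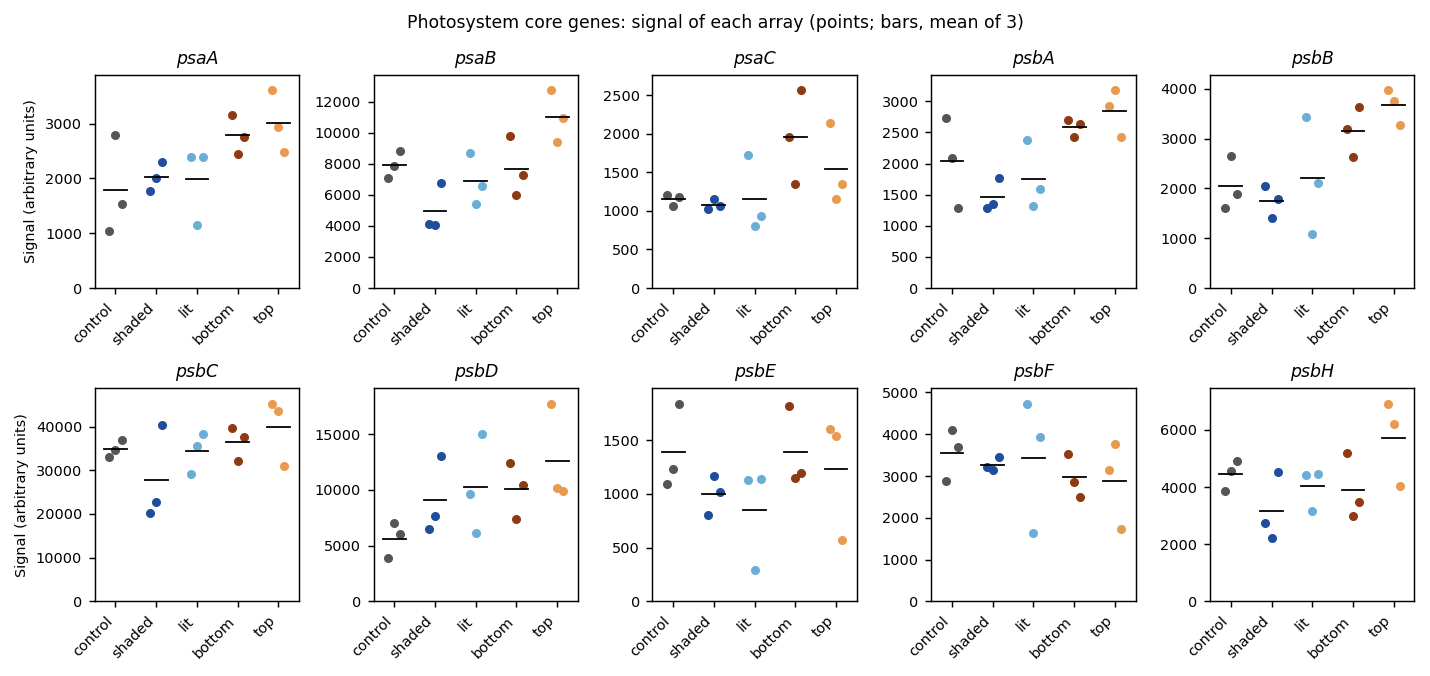
Signal of each of the 10 photosystem core genes on each of the 15 arrays (y axis, arbitrary units from 0; x axis, the 5 groups). Points are arrays and bars are means of 3. For psbA, psaA and psbB most gravity arrays lie above most blue light arrays, while psbF shows no such separation, and for psbE lit flank replicate 2 is the lowest point at 288.5.

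The first question was whether any of the 5 groups differed. None of the 10 genes passed the threshold in limma's F test over the 5 groups, in which 1.29% of the tested probe sets passed. The lowest adjusted p was 0.0838, for psaB, followed by 0.155 for psbA and 0.174 for psbB. Before adjustment, p was under 0.05 for 5 of the 10, and for 13.8% of all tested probe sets. The highest adjusted p was 0.926, for psbF. In separate fits, the count became 1 of the 10 without shaded flank replicate 3 (psaB) and 1 without lit flank replicate 1 (psbB). Of the 11373 tested probe sets, 135 and 129 passed in these fits.

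The clearest separation was between the stimulations. Compared with both gravity-stimulated flanks, both blue light flanks had lower signals of psaB, psbA and psbB, by 1.59-fold, 1.72-fold and 1.82-fold. These 3 of the 10 genes passed the threshold, all lower, where 1.22% of the tested probe sets passed on the lower side and 2.22% in all. Before adjustment, p was under 0.05 for 6 genes, all lower, and for 7.87% of all tested probe sets on the lower side (15.5% on either). The estimates of 9 of the 10 genes were below 0, with a median log2 difference of -0.56, and psbF alone had an estimate above 0. Over all tested probe sets the median was 0.01, with 48.8% of estimates below 0. This comparison uses no control array. Its 6 arrays a side are both flanks of 3 replicates, fitted as separate samples. The labels do not say whether opposite flanks were cut from the same seedlings. If they were, fewer than 6 samples a side would be independent, and this was not tested. Deviations from group means correlated at 0.13, 0.15 and 0.04 between same-numbered shaded and lit flanks. Between shaded and lit flanks of different numbers they ran from -0.12 to -0.02. For same-numbered bottom and top flanks they were 0.06, 0.003 and -0.02. No label records sowing or processing dates, and a batch that coincided with a stimulation cannot be told apart from it.

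Among the photosystem I genes, psaB encodes one of the paired proteins that bind the reaction centre chlorophylls. Its signals were 4123.1, 4025.5 and 6749.9 in the shaded flank and 8672.5, 5383.1 and 6585.8 in the lit flank. They were 9771.9, 5967.8 and 7278.8 in the bottom flank and 12722.8, 9384.9 and 10947.8 in the top flank, with 7052.0, 7881.2 and 8830.9 in the control. The top flank arrays were all above every other array except bottom flank replicate 1, and the shaded flank held the lowest values. The log2 difference between blue light and gravity was -0.67 (SE 0.16, adjusted p = 0.041, limma, n = 6 and 6), and both sets of arrays overlapped. Between single groups, the shaded flank was 1.18 log2 units below the top flank, with a difference of -1.18 (SE 0.23, adjusted p = 0.0376, limma, n = 3 and 3), in a comparison in which 0.246% of the tested probe sets passed. Of the 10 pairs of groups this was the only one in which a photosystem core gene passed, and it was chosen after its values were seen. In the other pairs 0 of the 10 genes passed in limma. There the share of probe sets past the threshold was 0% for shaded and lit, 0.29% for shaded and bottom, 1.26% for lit and bottom, 0.0879% for lit and top and 0.0352% for bottom and top flank. Against the control it was 0.00879% for the shaded, 0.361% for the lit, 0.431% for the bottom and 0.853% for the top flank. That call was lost without any 1 of 5 of its 6 arrays, all but shaded flank replicate 3, with adjusted p up to 0.147. It was also lost under quantile normalization, without the filter, without the intensity trend and with only the arrays of both groups.

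psaA, the partner of psaB in the reaction centre, had signals of 1779.6, 2000.0 and 2301.0 in shaded and 2396.7, 1147.8 and 2400.3 in lit flanks. Bottom flanks gave 3164.8, 2444.2 and 2749.9, top flanks 3608.3, 2938.5 and 2481.1, and controls 1038.9, 2786.9 and 1537.1. Every blue light array lay below every gravity array, although the gap between 2400.3 and 2444.2 was small and the control arrays overlapped both. The log2 difference was -0.56 (SE 0.22) and did not pass (adjusted p = 0.225). Groups that did not overlap, in the lower direction, occurred in 0.994% of the tested probe sets in this comparison, and in 2 of the 10 genes, psaA and psbA.

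psaC encodes the iron-sulfur protein on the electron acceptor side of photosystem I. Its signals ran from 809.4 to 1721.6 over the blue light arrays, from 1154.2 to 2563.1 over the gravity arrays and from 1062.5 to 1202.9 in the control. Its log2 difference between blue light and gravity was -0.63 (SE 0.20, adjusted p = 0.127). Lit flank replicate 1 was the highest blue light array, and without it the difference was -0.80 and passed (adjusted p = 0.0379).

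In photosystem II, psbA encodes D1, the reaction centre protein that is damaged and replaced in the light. Its signals were 1286.7, 1349.5 and 1774.5 in the shaded flank and 2377.4, 1316.7 and 1584.9 in the lit flank. They were 2699.6, 2430.5 and 2631.3 in the bottom flank and 2927.5, 3176.5 and 2428.4 in the top flank. Every blue light array lay below every gravity array, and the control arrays, at 2737.4, 2094.6 and 1280.4, spread over both. The log2 difference between blue light and gravity was -0.78 (SE 0.18, adjusted p = 0.0318, limma, n = 6 and 6).

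psbB encodes an inner antenna protein of photosystem II. Its signals were 2047.6, 1411.2 and 1793.1 in the shaded and 3428.3, 1086.8 and 2115.4 in the lit flank, against 3194.6, 2636.9 and 3631.0 in the bottom and 3967.7, 3758.4 and 3277.1 in the top flank. The control arrays were at 1601.7, 2647.7 and 1884.2. Lit flank replicate 1 reached into the range of the gravity arrays, and the other 5 blue light arrays lay below all 6 of them. The log2 difference was -0.87 (SE 0.22, adjusted p = 0.0463, limma, n = 6 and 6), the largest of the 10 genes.

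These 3 calls lay close to the threshold, and their sizes were steadier than their adjusted p. Over the alternatives and on leaving out any 1 of the 12 arrays, the difference stayed between -0.79 and -0.55 for psaB, between -0.90 and -0.69 for psbA and between -1.06 and -0.65 for psbB. With 1 array left out, psaB still passed in 3 of 12 cases (shaded 3, bottom 2 or lit 1 absent) and psbA in 3 of 12 (shaded 3, top 3 or lit 1 absent). psbB passed in 1 of 12, with lit flank replicate 1 absent, and each call was lost in the other cases. Adjusted p rose to at most 0.111, 0.0785 and 0.112. Without lit flank replicate 2 the differences were -0.59, -0.69 and -0.65, with adjusted p of 0.0951, 0.0713 and 0.0651, and the median of the 10 genes was -0.37. On every one of these settings 9 of the 10 genes had estimates below 0.

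The remaining photosystem II genes did not pass between blue light and gravity. psbH, a small phosphoprotein of the complex, had a log2 difference of -0.41 (95% interval -0.81 to -0.01, adjusted p = 0.314). psbC, the other inner antenna protein, had -0.33 (interval -0.68 to 0.02), and psbD, the reaction centre protein D2, had -0.26 (interval -0.77 to 0.24). The subunits of cytochrome b559 lay apart from each other, psbE at -0.55 (interval -1.24 to 0.13) and psbF at 0.17 (interval -0.32 to 0.66). The estimate of psbE rests in part on lit flank replicate 2, where its signal was 288.5 against 802.1 to 1166.4 on the other blue light arrays, and it was -0.22 without it. Top flank replicate 3 was likewise low in psbE, at 572.8, and in psbF, at 1723.2, and without that array the difference of psbF was 0.0062. Without lit flank replicate 1 it was 0.022, and without lit flank replicate 2 it was 0.41 (unadjusted p = 0.0383, adjusted p = 0.3, limma). The difference of psbD was -0.10 without lit flank replicate 2.

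Measures of the arrays moved with this comparison too. The 3 prime minus 5 prime log2 difference of actin, GAPDH and ubiquitin, a measure of how complete the labelled copies are, came to 1.21 ± 0.15 (SD, n = 6) under blue light and 0.90 ± 0.23 (n = 6) under gravity stimulation (two-sided exact permutation p = 0.00433, 0.026 after adjustment over 6 tests). In an older set of control probe sets on the same arrays it went the other way, -0.31 ± 0.15 against -0.17 ± 0.11 (exact p = 0.0996, adjusted 0.149). On the control arrays the first set gave 1.42 ± 0.26 (n = 3), which differed from gravity by -0.52 (gravity minus control, exact p = 0.0238, adjusted 0.0714) and from blue light by -0.20 (blue light minus control, exact p = 0.214, adjusted 0.214). The older set gave 0.06 ± 0.30 there. Its difference was -0.37 for blue light minus control (exact p = 0.0476, adjusted 0.0952) and -0.23 for gravity minus control (exact p = 0.19, adjusted 0.214). These tests took both flanks of a stimulation as separate samples. The share of the summed signal in the 68 plastid probe sets with a single symbol was 3.50 ± 0.42% (SD, n = 6) on blue light, 4.07 ± 0.36% (n = 6) on gravity and 4.17 ± 0.15% (n = 3) on control arrays. The part of either measure in the differences of the photosystem genes was not tested.

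**Figure D2:**
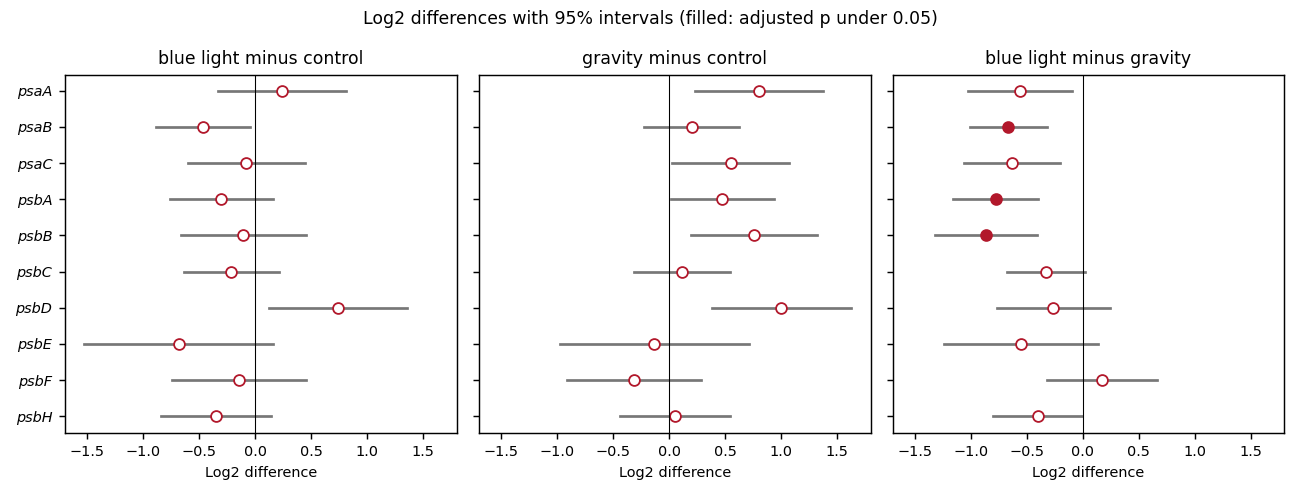
Log2 differences (x axis) of the 10 photosystem core genes (y axis) between blue light and control, gravity and control, and blue light and gravity, with 95% intervals. Filled points passed the threshold, which psaB, psbA and psbB did between blue light and gravity; psbD lies highest in both comparisons with the control, at 0.74 and 1.00.

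Against the unstimulated control, both flanks of each stimulation were averaged, and both comparisons share the same 3 control arrays. After blue light 0 of the 10 genes passed in limma, where 0.220% of the tested probe sets did. Before adjustment, p was under 0.05 for 2 of them and for 10.3% of all. Of the 10 estimates, 8 were below 0, with a median of -0.18, and over all tested probe sets the median was close to 0 and 50.5% were below 0. Without lit flank replicate 2 the median of the 10 was -0.091, with 5 below 0, and without lit flank replicate 1 it was -0.30. Quantile normalization gave -0.049. The largest were psbD at 0.74 (SE 0.29, adjusted p = 0.372), psbE at -0.69 (SE 0.40, adjusted p = 0.598) and psaB at -0.47 (SE 0.20, adjusted p = 0.416). Without lit flank replicate 2 psbE had -0.36 and psaA 0.42 in place of 0.24, and psaC, psbB and psbF had estimates of 0.03, 0.11 and 0.09 in place of -0.08, -0.11 and -0.14.

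After gravity stimulation 0 of the 10 genes passed in limma either, where 0.730% of the tested probe sets did. Before adjustment, p was under 0.05 for 5, all higher, where 6.01% of all tested probe sets were so on the higher side and 12.6% on either. The estimates of 8 genes were above 0, with a median of 0.34, against -0.01 and 49.0% above 0 over all tested probe sets. psbD had the largest, 1.00 (SE 0.29, adjusted p = 0.128), followed by psaA at 0.80 (SE 0.27, adjusted p = 0.195) and psbB at 0.76 (SE 0.26, adjusted p = 0.212). Those of psaC and psbA were 0.55 (SE 0.25) and 0.48 (SE 0.22). The 3 prime minus 5 prime difference also lay lower on gravity than on control arrays (log2 difference -0.52 in the first set and -0.23 in the older set). Its part in these estimates was not tested. Control replicate 1 had the lowest signal of psaA, psbB and psbD among the control arrays, and its average over the 10 genes was -0.28 relative to their means. Of all arrays it also had the highest 3 prime minus 5 prime difference, 1.71 in the first set and 0.40 in the older set. Without control replicate 1 the estimates were 0.75 for psbD, 0.47 for psaA and 0.60 for psbB. Without control replicate 2 those of the same genes were 1.18, 1.18 and 0.96, none past the threshold. That of psbA was 0.17 without control replicate 3 and 0.72 without control replicate 1.

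psbD is the gene whose unit carries the blue-light-responsive promoter in Arabidopsis. Its signals were 3870.5, 6989.8 and 6031.6 in the control. They were 6492.1, 7675.1 and 13012.0 in the shaded and 9621.2, 6170.0 and 15036.2 in the lit flank, and 12390.1, 7409.6 and 10481.7 in the bottom and 17752.1, 10164.2 and 9950.1 in the top flank. All 6 gravity arrays lay above all 3 control arrays, and 4 of the 6 blue light arrays did. Groups that did not overlap, in the higher direction, occurred in 3.15% of the tested probe sets between gravity and control, and in 1 of the 10 genes, psbD. Its estimate against the control was above 0 after both stimulations, which share the control arrays, and their own difference was -0.26 (interval -0.77 to 0.24).

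**Figure D3:**
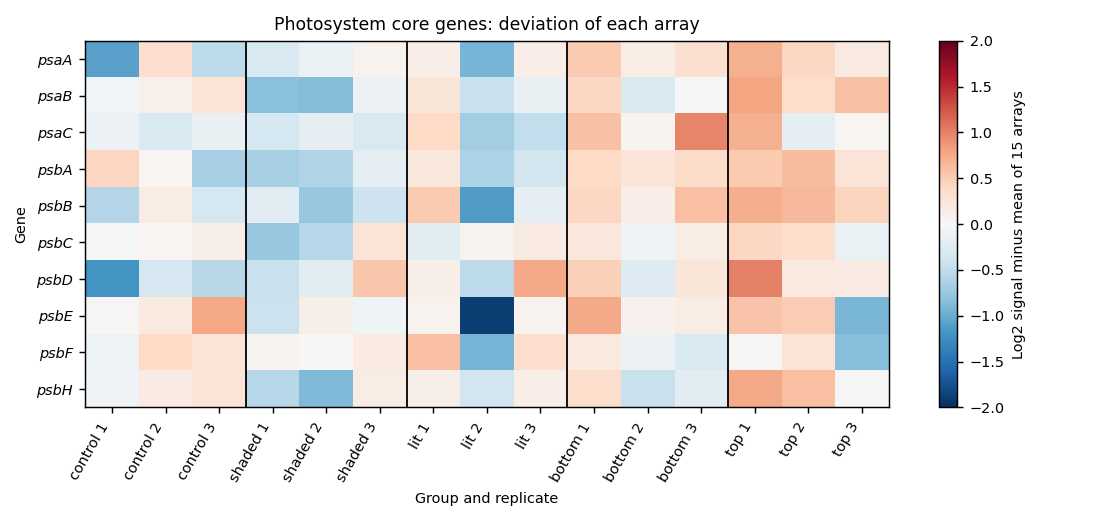
Log2 signal of each photosystem core gene (rows) on each array (columns, by group and replicate) minus the gene's mean over the 15 arrays. Lit flank replicate 2 is low in 9 of the 10 genes, and bottom flank replicate 1 and top flank replicate 1 are above the mean in all 10.

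Between opposite flanks no photosystem core gene passed. In shaded against lit flank 0 of the 10 genes passed (limma, 0 with an unadjusted p under 0.05), where 0% of the tested probe sets did and 5.26% had such an unadjusted p. In bottom against top flank 0 of the 10 passed and psaB was the 1 gene with an unadjusted p under 0.05 (limma), where 0.0352% of the tested probe sets passed and 7.49% had such an unadjusted p. With both stimulations combined, elongating against opposite flanks, 0 of the 10 passed and 2 had an unadjusted p under 0.05 (limma), both lower. Of the tested probe sets 0.237% passed, 8.63% had such an unadjusted p and 4.11% had it on the lower side. These 2 were psaB, with a log2 difference of -0.51 (SE 0.16, adjusted p = 0.284), and psbH, with -0.48 (SE 0.19, adjusted p = 0.458). For psaB the flank difference was -0.49 after blue light and -0.54 after gravity stimulation, and for psbH -0.39 and -0.56. Leaving out 1 array, these ran from -0.73 to -0.30 and from -0.73 to -0.37 for psaB, and from -0.69 to -0.17 and from -0.80 to -0.39 for psbH. The signal of psbH was 2752.0, 2218.3 and 4534.5 in the shaded, 4420.9, 3173.8 and 4474.2 in the lit, 5198.8, 2980.1 and 3478.1 in the bottom and 6919.1, 6209.1 and 4048.9 in the top flank, so both pairs of flanks overlapped. The median over the 10 genes was -0.20 in the combined comparison, and that of all tested probe sets was close to 0. Without lit flank replicate 1 it was -0.038, and without any other 1 array it lay between -0.25 and -0.13.

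An interaction term compared the flank difference after blue light with that after gravity stimulation, and 0 of the 10 genes passed (limma, 0 with an unadjusted p under 0.05, adjusted p of 1 for each). Of all 11373 tested probe sets 0 passed, and 383 had an unadjusted p under 0.05 (limma). The estimates of the 10 genes lay between -0.36 (SE 0.40) for psaC and 0.21 (SE 0.44) for psaA. Standard errors of this size leave room for sizeable differences, so the flank effects of the stimulations were not shown to be alike.

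The 10 genes tended to vary together from array to array. Their average deviation was highest on top flank replicate 1, at 0.62, and bottom flank replicate 1, at 0.44, where all 10 genes were above their means. It was lowest on lit flank replicate 2 and on shaded flank replicates 1 and 2, at -0.45 and -0.41. Over the 15 arrays all 45 pairs of genes had a Pearson r above 0, with a median of 0.48 and a range from 0.07 (psbC and psbF) to 0.88 (psaB and psbH). With group means taken off, the median was 0.50, so the shared variation was also present between replicates of one group. These correlations share the arrays and their scaling and are a description.

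Genes of one transcription unit did not always move alike. psbE and psbF had an r of 0.76 over the 15 arrays, psbB and psbH 0.58, psaA and psaB 0.51, and psbC and psbD 0.48. With group means taken off, these pairs had 0.92, 0.47, 0.54 and 0.64, in the same order. The difference psbD minus psbC, centred on its mean over the arrays, lay between -1.15 and -0.38 in the control. It lay between -0.18 and 0.59 on the gravity arrays and between -0.59 and 0.59 on the blue light arrays, where lit flank replicate 2 alone was below -0.38. psbC itself had signals of 32995.3 to 36984.9 in the control, 31062.6 to 45242.4 after gravity stimulation and 20118.4 to 40456.6 after blue light, with log2 differences from the control of 0.12 (SE 0.20) and -0.21 (SE 0.20). psaA minus psaB was likewise lowest in the control, at -0.52 ± 0.67 (SD, n = 3), with control replicate 2 at 0.24. psbE minus psbF was -0.40 ± 0.36 (n = 6) after blue light and 0.33 ± 0.25 (n = 6) after gravity stimulation, with 5 of 6 blue light arrays below 0 and 5 of 6 gravity arrays above it. Such within-array differences depend on how each probe set follows its transcript, and no test was made of them.

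**Figure D4:**
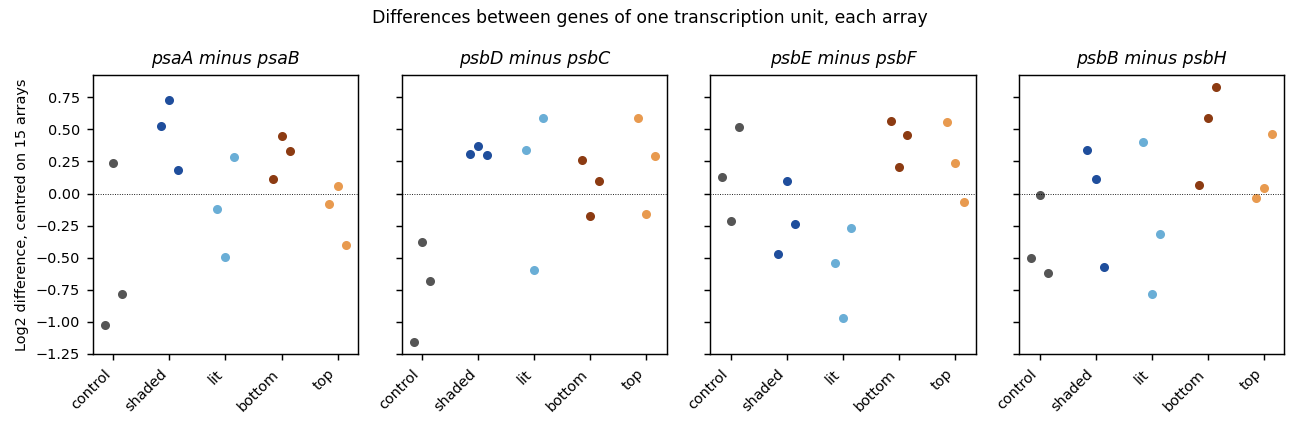
Log2 signal of one gene minus that of another of the same transcription unit on each array, centred on the mean of 15 arrays (y axis), by group (x axis). The control arrays lie lowest in psbD minus psbC, from -1.15 to -0.38, with lit flank replicate 2 at -0.59 among them.

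Other plastid genes gave the setting for these values. Of 25 tested further photosynthesis genes of the plastid (small photosystem subunits, cytochrome b6f, ATP synthase and rbcL), 9 passed as lower in blue light than in gravity flanks and 0 as higher, with a median of -0.34. The first 4 by p were psaI, of photosystem I, at -1.20 (adjusted p = 0.00582), atpH, the ring subunit of ATP synthase, at -0.76 (adjusted p = 0.0063), petL at -0.88 (adjusted p = 0.00917) and petA, cytochrome f, at -0.86 (adjusted p = 0.0147). Of 9 tested NDH genes none passed (median -0.37), with ndhD at -0.53 (adjusted p = 0.101) and ndhI at -0.66 (adjusted p = 0.158) of smallest p. Of 18 tested genes for plastid ribosomal proteins, RNA polymerase and maturase, 2 passed as higher, rpl14 and rpl16, and 1 as lower, rpoC2, with a median of -0.17. Among 4 others accD passed, at -1.07. In all, 57 of the 66 tested plastid genes had estimates below 0 in this comparison, so estimates below 0 were common among plastid genes at large.

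Against the control the lists differed in their medians. After blue light the 56 other tested plastid genes had a median of -0.49, with 51 below 0, and 3 passed as lower (psaI, petA and accD), against -0.18 for the 10 photosystem core genes. After gravity stimulation the 56 had a median of -0.11, with 21 above 0, and 2 passed as lower (rpl14 and rpl16), against 0.34 for the 10. Mitochondrial genes had medians of -0.52 and -0.15 over 8 tested probe sets, and nad4 passed as lower in both, at -1.09 (adjusted p = 0.0106) and -0.84 (adjusted p = 0.0155). Between blue light and gravity, cox2 and cox1 passed as lower. Few nuclear genes of the photosystems were matched by symbol and tested, 4 of 32 listed subunit symbols (PSBY, PSAN, PSAE-1 and PSBW) and 3 of 26 light-harvesting symbols (LHCB4.1, LHCB4.2 and LHCB4.3). Their estimates were above 0 in 4 of 4 and 3 of 3 after blue light, with medians of 0.33 and 0.52, and in 3 of 4 and 3 of 3 after gravity stimulation, with medians of 0.04 and 0.22. In limma 0 of them passed in either comparison. After blue light the smallest adjusted p were 0.395 for PSAE-1 and 0.463 for LHCB4.2. Of 4 tested mRNA and assembly factors HCF101, needed for photosystem I, passed as higher after blue light, at 1.02 (adjusted p = 0.0315). None of the fixed symbols for sigma factors and polymerase partners matched a named probe set. The difference between these lists and the 10 genes was not tested.

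**Figure D5:**
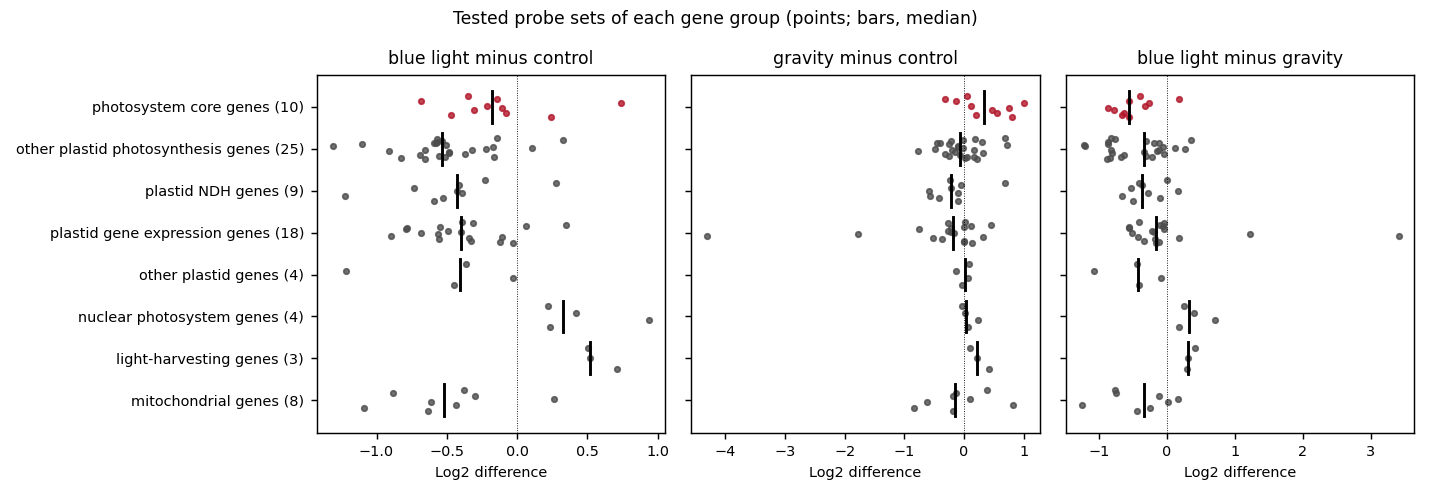
Log2 differences (x axis) of the tested probe sets of each gene group (y axis, number in brackets) in 3 comparisons, with a bar at the median. The photosystem core genes have a median of 0.34 after gravity stimulation and -0.56 between blue light and gravity; the nuclear photosystem and light-harvesting genes lie above 0 after blue light.

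Neighbours in the transcription units could be set beside the members. In the unit of psbB and psbH, psbT had a log2 difference between blue light and gravity of -0.22, petB of -0.63 and petD of -0.04, none past the threshold, against -0.87 for psbB. rps14, which follows psaA and psaB, had -0.11, and psbZ, which follows psbC, had -0.11. psbJ and psbL, downstream of psbE and psbF, had -0.19 and -0.12, and around psaC ndhD, ndhE and ndhG had -0.53, -0.50 and -0.10. Within each unit the estimates therefore spanned a range, with the ribosomal protein gene rps14 nearer 0 than psaA and psaB.

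Likeness to the average profile of the 10 genes was measured over the 15 arrays. Among 6274 tested single-symbol probe sets the highest Pearson correlations were 0.89 for ycf3, 0.84 for psbI, 0.82 for AT5G19210, 0.81 for petB and 0.79 for petG. The lowest were -0.85 for AT3G50570 and -0.83 for AT4G30500. Of the 20 most alike, 10 were plastid genes, of 56 plastid genes among the candidates. The arrays and their scaling are common to all of these profiles.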

How the data were processed

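The authors' values are intensities, Affymetrix signals per probe set on a linear scale, deposited as 1 table. The submitters' processing notes name GCOS 3.0, and its settings were not given in the sources used here. The deposited values had a trimmed mean of 500 on every array (2% left out at each end). Depth does not apply to arrays.

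Gene names came from the array's annotation. The 64 control probe sets were left out, 1 value at or below 0 was set to 0.4, and log2 was taken. Probe sets at or above the median mean log2 signal, 8.28, were kept. With limma 3.58.1 (R 4.3.3), one fit of the 15 arrays took a mean per group (eBayes with an intensity trend, 10 residual degrees of freedom). Benjamini-Hochberg values were taken per comparison. The fit was tested on simulated data. Plastid genes were told from mitochondrial ones of the same symbol by gene ID. FDH was dropped from the epidermal markers, since the annotated gene is another one. Permutation tests used scipy 1.17.1.

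All 10 genes were tested and counted in every comparison. Of other lists, up to 4 genes past the threshold were named by p, or 2 of smallest p where none passed, as were neighbours in a unit and the most and least alike profiles. rpl14, rpl16, rpoC2, accD, nad4 and HCF101 came under the same rule. Members and lists were chosen with earlier results of these data known. The design text calls the samples biological, and nothing says whether they came from separate sowings, so p values measure the spread between these samples. Correlations of deviations between same-numbered opposite flanks ran from -0.02 to 0.15, with 2 of 6 over 0.1. They were 0.13, 0.15 and 0.04 for shaded and lit flanks, and 0.06, 0.003 and -0.02 for bottom and top flanks. Between shaded and lit flanks of different numbers they ran from -0.12 to -0.02. These values are small, and numbers were not taken as pairs in the main fit, though shared seedlings remain possible. Alternatives changed the normalization, the filter, the trend, array weights, an added offset of 16, the arrays fitted and the replicate block, and left out each array in turn.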

Additional observations from a re-analysis of the deposited data

Results flagged for a closer look

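The 25S ribosomal RNA control probe set, which the comparisons do not use, had a signal of 4507.6 on lit flank replicate 2, above the control arrays, at 649.4 to 930.6, and 4.84 times the next highest array. That array also had the lowest average signal of the photosystem core genes. Groups of 3 arrays were too small for a test of single outlying arrays.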

How the results depend on the processing

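Of the 10 genes, 3 passed between blue light and gravity. With quantile normalization 1 passed, with only the arrays of the groups compared 1 (psbA both times), and without the filter or without the intensity trend 0. The 5 other settings kept 3, and leaving out 1 array gave 0 to 4. In the test over all 5 groups leaving out 1 array gave 0 to 1, and against the control and between opposite flanks every setting kept 0. The 1 call between single groups, psaB in shaded against top flank, was kept in 5 of 9 other settings and in 1 of 6 with an array left out. Over all tested probe sets, the 253 calls between blue light and gravity ranged from 106 without the trend to 299 among the brightest 30%, and the 25 and 83 calls of blue light and gravity against the control from 9 and 37 without the trend to 60 and 169 with array weights. The 147 of the test over 5 groups ranged from 43 to 218, the 4 of bottom against top from 0 to 17 and the 27 of elongating flanks from 4 to 45. With 1 array left out these ran from 132 to 252, 1 to 61, 30 to 99, 63 to 157, 0 to 7 and 5 to 29.

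None of the estimates that changed sign had passed. Quantile normalization gave 0.11 for psbC in blue light against control and -0.036 for psaA in elongating flanks, and array weights gave 0.083 for psaC in shaded against lit. Leaving out 1 array, blue light against control ran from -0.090 to 0.62 for psaA, -0.25 to 0.027 for psaC, -0.30 to 0.11 for psbB and -0.29 to 0.092 for psbF. Gravity against control ran from -0.29 to 0.11 for psbE and -0.061 to 0.17 for psbH. Shaded against lit ran from -0.25 to 0.28 for psaA, -0.23 to 0.31 for psaC, -0.42 to 0.011 for psbA, -0.64 to 0.19 for psbB, -0.47 to 0.17 for psbD, -0.20 to 0.79 for psbE and -0.40 to 0.37 for psbF. Bottom against top ran from -0.23 to 0.037 for psaA, -0.21 to 0.53 for psbE and -0.22 to 0.34 for psbF. Elongating flanks ran from -0.18 to 0.090 for psaA and -0.15 to 0.24 for psbF. The cause was not tested.

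With replicate number as a block, 3 genes passed between blue light and gravity, as without it. That block ties same-numbered arrays across stimulations, so it cannot address seedlings shared by both flanks of one stimulation. With stimulation by number as a block 0 passed between flanks. Blue light and gravity were not compared with that block. Of 12 flank arrays 8 correlated best with their own number, every shaded and lit flank array among them. This is a hint from the data and not part of the design.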
